A study of Mus musculus with 208 samples.

Results

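Sorted neuronal nuclei carried a small and very uneven load of RNA from the mitochondrial genome. The members described here are every gene whose symbol starts with mt- in the raw counts of 4 brain regions, namely the striatum, prefrontal cortex (PFC), hippocampus and hypothalamus, which were 37 of the 46403 listed genes. They comprise 2 ribosomal RNAs (rRNA), 13 messenger RNAs (mRNA) and 22 transfer RNAs (tRNA). The libraries came from C57BL/6NTac wild-type mice whose dams had received saline or 10 mg/kg morphine sulfate daily from osmotic minipumps. Pups, raised by drug-naive surrogate dams, were given morphine at 10 mg/kg under the skin, or saline, from postnatal day (PND) 1 to PND 14. As adults the offspring were challenged with LPS, a bacterial cell-wall component that triggers an innate immune response, or with saline, and tissue was taken 2 h later. The arms are named by exposure and challenge: the unchallenged arms SAL-SAL (saline-exposed) and MOR-SAL (morphine-exposed), and the challenged arms SAL-LPS and MOR-LPS. There were 208 libraries of about 5000 NeuN+ nuclei each, from 71 animals of 18 litters, 107 libraries from females and 101 from males. The hypothalamus had 11, 14, 12 and 14 libraries in these arms, in the order given, the hippocampus 13, 12, 14 and 16, the PFC 10, 12, 10 and 16, and the striatum 13, 8, 15 and 18. Exposure was assigned by litter, and no litter contributed to both exposures.

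The mitochondrial genome is a small circle that is read from both strands into long transcripts, which are cut at the tRNAs into single RNAs. Its mRNAs encode core subunits of the respiratory complexes I, III, IV and V, its rRNAs build the mitochondrial ribosome, and all other subunits and factors come from nuclear genes. Mitochondria lie in the cytoplasm, and in neurons also in axons and at synapses, so that their RNA is a minor component of a preparation of nuclei. In bulk libraries such as these, a lower count can come from fewer organelles or cells of a type or from less RNA in each, and these cannot be told apart.

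Total counts ran from 7673 to 92945090 per library, with a median of 9176573.5, and 8 libraries had a total under 0.5 of their region's median. In 9 libraries (3 of the hypothalamus, 4 of the hippocampus, 2 of the PFC and none of the striatum) the summed level of 4 Y-linked genes, with a threshold of 20 CPM (each gene's reads scaled to a fixed library total), went against the labelled sex. Neuronal markers had medians of 2032 to 5690 CPM in sum per region, oligodendrocyte markers of 307 to 357, and astrocyte, microglia and endothelium markers of 42.0 or less. A further difference lies between the tables themselves. Among the 12491 genes whose hypothalamic median reached 5 CPM, 1480 (11.8%) had no count in any library from elsewhere. Comparisons with the hypothalamus therefore set tables side by side that differ in more than the tissue, and the part of this in the differences below was not tested.

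The rRNAs are printed first, since mt-Rnr2 alone carried most mitochondrial counts and mt-Rnr1 very few, together with the only tRNA counted in many libraries. All positions are on the mm10 mitochondrial genome (chrM), with sequences from the GENCODE M21 transcripts. For mt-Rnr2, the large-subunit rRNA, the stretch is chrM:1451-1530 on the plus strand, and for mt-Rnr1, the small-subunit rRNA, chrM:667-746 on the plus strand. Capitals mark 1 run of A of the greatest length in each gene, 7 bases in mt-Rnr2 and 5 bases in mt-Rnr1. A second run of 5 A near the end of the mt-Rnr1 stretch is left in lower case. The proline tRNA mt-Tp is shown whole, at chrM:15356-15422 on the minus strand, with its anticodon in capitals.
mt-Rnr2: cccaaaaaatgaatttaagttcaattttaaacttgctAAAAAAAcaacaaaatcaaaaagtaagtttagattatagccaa
mt-Rnr1: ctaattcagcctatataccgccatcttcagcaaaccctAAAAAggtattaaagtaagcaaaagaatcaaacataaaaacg
mt-Tp: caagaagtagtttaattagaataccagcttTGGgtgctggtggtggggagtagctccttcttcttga

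Several members have near-identical copies in the nuclear genome, so reads cannot be assigned to them alone. Among the annotated transcripts, 7 such copies lie in a row on the minus strand of chromosome 1. Gm28661 matches mt-Co2 over 681 bases at 100% identity, Gm10925 matches mt-Atp6, Gm28437 matches mt-Co3, Gm28438 matches mt-Nd3, Gm10222 matches mt-Nd4l, Gm28439 matches part of mt-Nd4 and Gm29216 part of mt-Co1. The first pairs below show how little separates such copies, and the last, of mt-Cytb and a more distant copy, is given for contrast, with differing bases in capitals. The mt-Co2 stretch is chrM:7313-7392 (plus strand) beside chr1:24615186-24615265 (minus strand), and no base differs. The start of mt-Nd3 is chrM:9459-9538 (plus strand) beside chr1:24613040-24613119 (minus strand), with 1 difference. The mt-Cytb stretch is chrM:14445-14524 (plus strand) beside Gm11410 at chr4:80004289-80004368 (plus strand), with 8 differences.
mt-Co2: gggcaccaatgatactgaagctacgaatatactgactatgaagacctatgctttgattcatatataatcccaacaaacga
Gm28661: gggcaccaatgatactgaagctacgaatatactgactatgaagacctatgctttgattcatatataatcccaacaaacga
mt-Nd3: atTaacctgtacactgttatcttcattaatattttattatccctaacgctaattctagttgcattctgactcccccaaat
Gm28438: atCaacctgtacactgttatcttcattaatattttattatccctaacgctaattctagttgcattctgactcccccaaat
mt-Cytb: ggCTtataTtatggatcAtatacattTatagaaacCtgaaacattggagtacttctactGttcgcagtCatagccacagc
Gm11410: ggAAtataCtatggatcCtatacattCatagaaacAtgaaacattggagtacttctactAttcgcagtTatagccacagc

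Of all possible 100-base windows, 97.6% to 99.9% were found in nuclear transcripts for mt-Co2, mt-Atp6, mt-Co3, mt-Nd3 and mt-Nd4l, 60.8% for mt-Nd4, 30.8% for mt-Co1 and 3.2% for mt-Nd2. No window was found for mt-Rnr1, mt-Rnr2, mt-Nd1, mt-Nd5, mt-Nd6, mt-Cytb or mt-Atp8. The copies took up counts of their own. Gm28661 had 775 counts over all libraries against 605 for mt-Co2, Gm10925 had 687 against 358 for mt-Atp6, Gm28437 had 3269 against 2515 for mt-Co3, and Gm10222 had 558 against 52 for mt-Nd4l. Values of the genes with copies are therefore uncertain, whereas mt-Rnr2, mt-Nd1 and mt-Cytb, among the most abundant members, are free of this limit within the annotated transcripts.

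The share of counts on mt- genes was below 1% in nearly every library. Its mean was 0.219% ± 0.337 (SD, n = 208) and its median 0.092%, from 0.009% in a hippocampal SAL-LPS library to 2.569% in a striatal SAL-SAL library, a 297-fold range. Only 8 libraries exceeded 1%, and 109 lay under 0.1%. In the hypothalamus the mean was 0.223% ± 0.255 (SD, n = 51) with a median of 0.093%. In the hippocampus it was 0.130% ± 0.213 (SD, n = 55) with a median of 0.073%, the lowest of the 4 regions. The PFC had 0.232% ± 0.319 (SD, n = 48) and the striatum 0.293% ± 0.482 (SD, n = 54), both with a median of 0.122%. The SD exceeded the mean in every region, and the regions overlapped over nearly their whole ranges. For the shallowest library, a hypothalamic SAL-LPS library with 4 mt- counts of 7673, the 95% Wilson interval ran from 0.020% to 0.134%, and it covers counting error only, since reads and not molecules were counted.

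**Figure D1:**
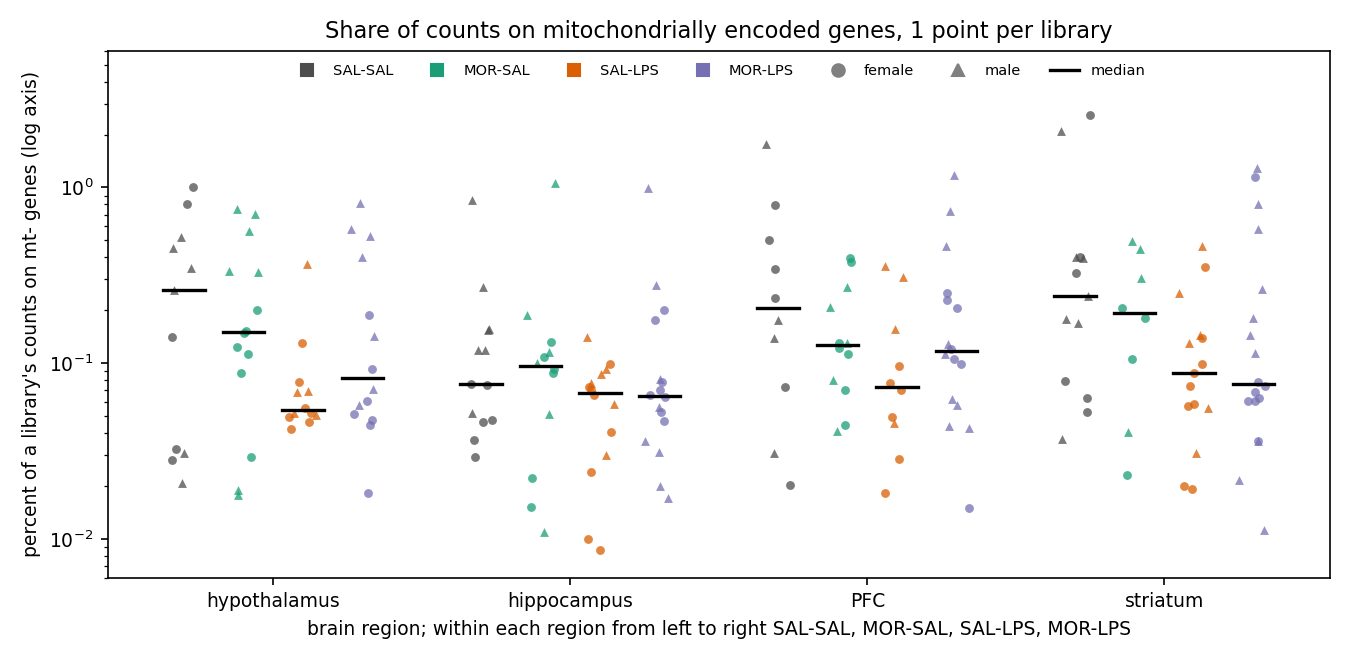
Percent of each library's counts on mt- genes (log axis) by region and arm, 1 point per library, circles for females, triangles for males and bars for arm medians. The SAL-LPS median lies below the SAL-SAL median in every region (0.054% and 0.261% in the hypothalamus), and the points of the arms overlap.

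The 8 libraries above 1% were spread over regions and arms. In the striatum they were SAL-SAL libraries of a female (2.569%) and a male (2.090%) and MOR-LPS libraries of a male (1.289%) and a female (1.150%). In the PFC a SAL-SAL male had 1.762% and a MOR-LPS male, a library of low depth, 1.183%. A hippocampal MOR-SAL male had 1.060% and a hypothalamic SAL-SAL female 1.007%. SAL-LPS was the one arm with no library above 1%.

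Most mitochondrial counts were rRNA, and nearly all of those were mt-Rnr2. On average, rRNA made up 75.3% ± 10.3 (SD, n = 208) of a library's mt- counts. The mean was 77.6% ± 7.5 (SD, n = 51) in the hypothalamus, 69.5% ± 8.8 (SD, n = 55) in the hippocampus, 74.5% ± 14.9 (SD, n = 48) in the PFC and 79.7% ± 5.2 (SD, n = 54) in the striatum. mRNA made up 22.4%, 30.5%, 25.5% and 20.3% in the same order, and tRNA at most 0.021%. The makeup varied most in the PFC and least in the striatum. In the PFC the arm means of the rRNA percentage ran from 67.2% in SAL-LPS to 79.4% in SAL-SAL, within SDs of 12.8 to 16.9 percentage points.

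**Figure D2:**
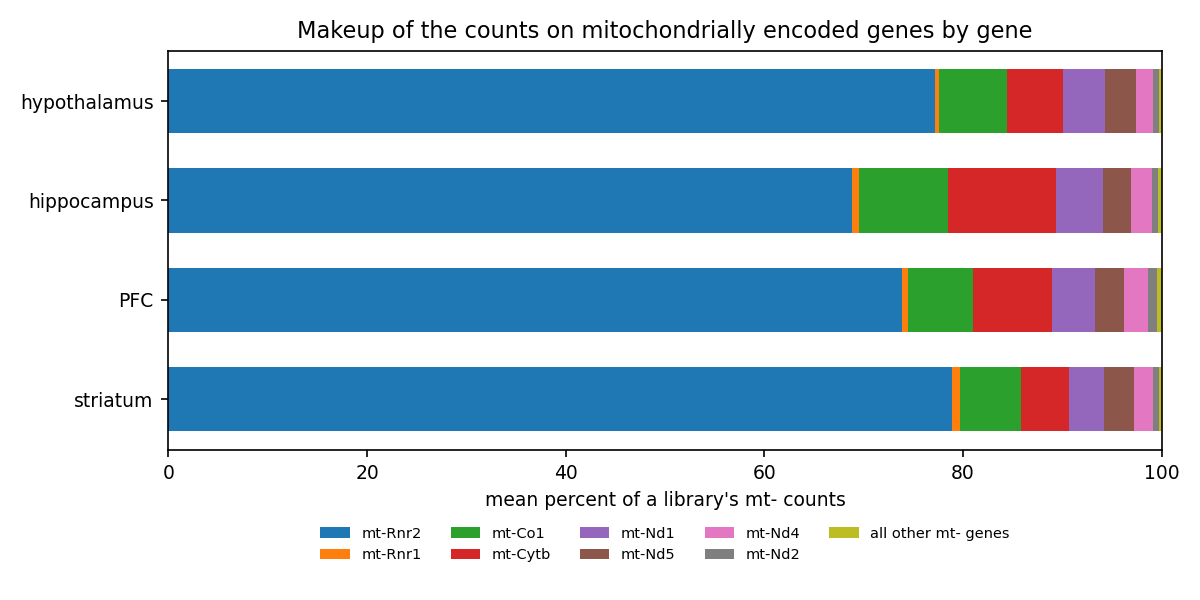
Mean percent of a library's mt- counts on each gene, 1 bar per region, with all genes beyond the 8 most abundant joined. mt-Rnr2 takes 68.8% in the hippocampus to 78.9% in the striatum, and mt-Cytb and mt-Co1 are widest in the hippocampus.

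A few libraries had another makeup. In the PFC MOR-LPS library of animal 15-3, rRNA made up 21.9% of 7768 mt- counts, and mt-Cytb with 2656 counts exceeded mt-Rnr2 with 1672. In the PFC SAL-SAL library of animal 4-1, rRNA made up 46.4% of 73029 mt- counts, with 22401 on mt-Cytb and 33305 on mt-Rnr2. The median ratio of mt-Cytb to mt-Co1 counts was 0.800 in the hypothalamus, 1.24 in the hippocampus, 1.09 for the PFC and 0.753 for the striatum, over libraries with at least 100 mt- counts.

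Levels between members are compared as CPM per kilobase of gene. The rRNAs, although they are made from the same stretch of the genome and needed in equal number, were far apart. mt-Rnr2 averaged 1073, 539, 1108 and 1438 CPM per kilobase in the hypothalamus, hippocampus, PFC and striatum, and mt-Rnr1 6.33, 7.77, 14.8 and 23.5. The median ratio per kilobase was 133, 79.7, 95.1 and 79.0, over libraries with at least 100 mt- counts and an mt-Rnr1 count. mt-Rnr2 had a count in all 208 libraries (3045184 counts in sum), and mt-Rnr1 in 198 (23976 counts).

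Among the mRNAs, mt-Cytb, the only mitochondrially encoded subunit of complex III, averaged 109, 145, 174 and 142 CPM per kilobase in the same order of regions. mt-Nd1, a membrane subunit of complex I, averaged 104, 80.2, 100.5 and 123, and mt-Co1, the catalytic subunit of complex IV, 105, 76.1, 77.6 and 117. The other complex I subunits were lower. mt-Nd5 averaged 19.2 to 45.7 and mt-Nd4 25.3 to 46.2, mt-Nd2 8.33 to 19.6 and mt-Nd6, the only mRNA on the minus strand, 5.76 to 12.4. mt-Nd5 and mt-Nd6 overlap by 14 bases on opposite strands, and the use of strand in counting was not given in the sources used here. The subunits whose windows were found almost whole in nuclear transcripts were near the floor. mt-Co3 of complex IV averaged 1.08 to 2.16 CPM per kilobase, mt-Co2 of the same complex 0.131 to 0.852, mt-Atp6 of complex V 0.207 to 0.366, mt-Nd3 0.021 to 0.250 and mt-Nd4l 0.035 to 0.129.

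Counts on tRNAs were rare. mt-Tp had 433 counts in 73 libraries and mt-Tq, the glutamine tRNA, had 6 counts in 2 PFC libraries. The other 20 tRNAs and mt-Atp8, the small complex V subunit, were at 0 in every library. Over the 2220878944 counts of all libraries this allows up to 0.00135 CPM, a bound on counts and not on RNA. The tRNAs are 59 to 75 bases long, shorter than the windows searched for copies. For mt-Atp8 the last 43 bases match Gm10925 at 100% identity, and copies outside annotated transcripts were not sought. Genes on the minus strand, tRNAs and mt-Nd6 together, made up a median of 0.153% to 0.295% of the mt- counts per region.

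**Figure D3:**
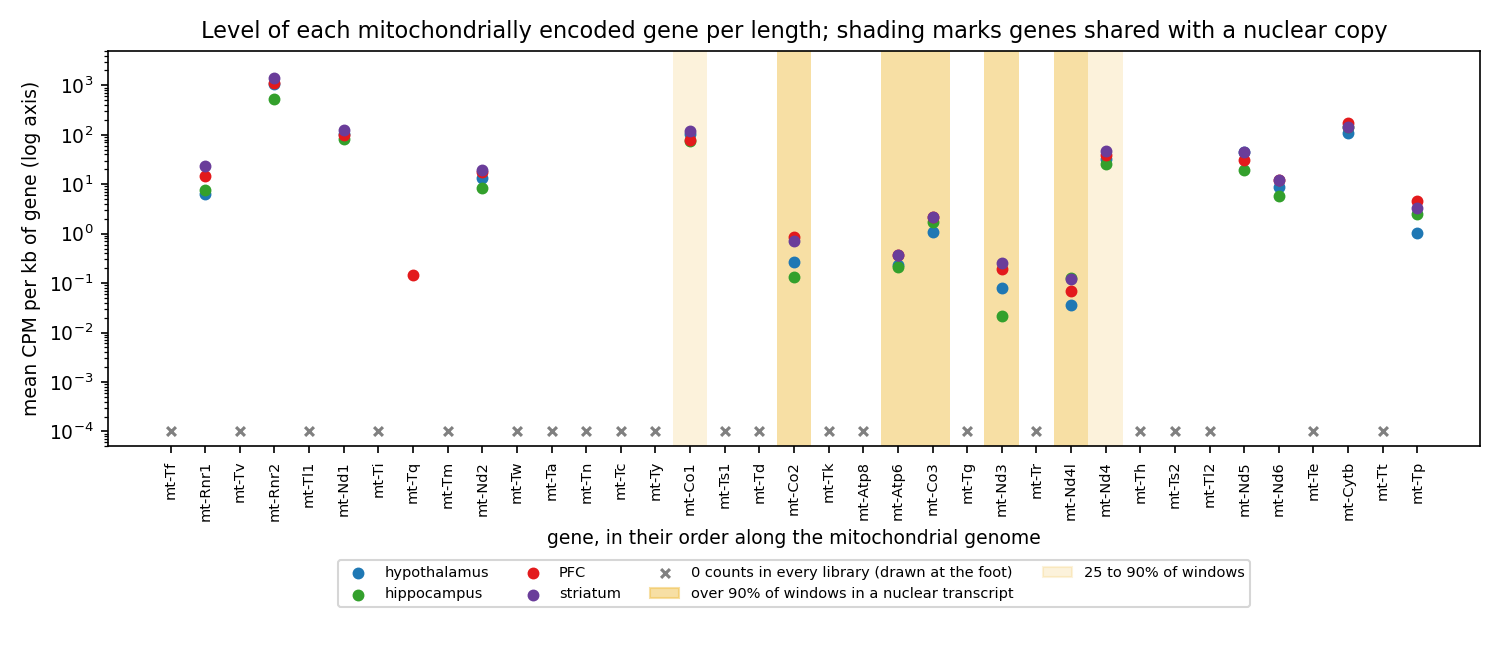
Mean level of each mt- gene in each region, in CPM per kilobase of gene (log axis), in the order of the genes along the mitochondrial genome, with shading for genes whose 100-base windows recur in nuclear transcripts and crosses at the foot for genes with no count. mt-Rnr2 (539 to 1438) stands highest, and most shaded genes from mt-Co2 to mt-Nd4l lie lowest.

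Between regions, the hippocampus had the lowest levels of several members. Tests used edgeR's quasi-likelihood test over 32841 genes with Benjamini-Hochberg adjustment, and 15 members passed the filter of a total count above 10. Differences are log2 fold changes with SE. Compared with the PFC, 7 members were lower in the hippocampus and none higher, among 27.3% of all genes called. They included mt-Co2 (-3.11 ± 0.54, adjusted p = 3.83e-07), mt-Nd2 (-1.49 ± 0.34, adjusted p = 0.000142) and mt-Rnr2 (-1.21 ± 0.29, adjusted p = 0.000264). Compared with the striatum, 7 were again lower and none higher, among 28.4% of all genes, with mt-Rnr1 (-1.69 ± 0.32, adjusted p = 5.24e-06), mt-Rnr2 (-1.47 ± 0.28, adjusted p = 6.90e-06) and mt-Co2 (-2.56 ± 0.52, adjusted p = 1.75e-05) having the smallest p. The counts behind mt-Co2 are few, and with the animal as a term in limma-voom its difference from the striatum was -0.66 (adjusted p = 0.145). mt-Nd1 and mt-Co1 had values of -0.78 ± 0.33 and -0.43 ± 0.31 against the PFC and -0.72 ± 0.32 and -0.74 ± 0.30 against the striatum, which missed the threshold in edgeR, although mt-Nd1 was called against the PFC with the animal as a term (-0.94, adjusted p = 0.0113). Since 27.3% and 28.4% of all genes passed, members being among them sets them little apart. Between the PFC and the striatum 31.2% of all genes were called but 0 of 15 members, with 0 at an unadjusted p under 0.05 and 0 in DESeq2 and limma-voom, and the smallest adjusted p was 0.146 for mt-Rnr1 in edgeR.

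In comparisons with the hypothalamus, most genes were called and the median of all genes was itself shifted by 0.52, 0.55 and 0.47 toward the hypothalamus against the hippocampus, PFC and striatum. The median over the 15 members was 0.19, -1.04 and -0.83 in the same order. Against the hippocampus 5 members were called among 62.1% of all genes. mt-Co2 (1.26 ± 0.50), mt-Nd5 (0.88 ± 0.29) and mt-Rnr2 (0.75 ± 0.28) were higher in the hypothalamus, but mt-Rnr2 was not called with the animal as a term (0.31, adjusted p = 0.460). mt-Tp and mt-Nd4l were lower (-1.97 ± 0.53 and -1.13 ± 0.31), yet both were positive with the animal as a term in limma-voom (0.32, adjusted p = 0.330, and 0.70, adjusted p = 0.00449), where mt-Cytb was called as lower (-0.64, adjusted p = 0.0443). Over the alternatives of these 5 members the adjusted p ran up to 0.972. Against the PFC 8 members were lower and none higher, among 63.3% of all genes, led by mt-Tp (-2.51 ± 0.58, but 0.14 with the animal as a term, adjusted p = 0.675), mt-Rnr1 (-1.38 ± 0.34, adjusted p = 0.000150) and mt-Co2 (-1.85 ± 0.55, but -0.09 with that term, adjusted p = 0.807). With the animal as a term 9 were called. Of these 7 were lower, mt-Nd1 (-0.80, adjusted p = 0.00991) and mt-Rnr2 (-0.82, adjusted p = 0.0403) among them. The other 2, mt-Nd3 (0.71, adjusted p = 0.00424) and mt-Nd4l (0.67, adjusted p = 0.00667), had positive values that go against their mean levels. Against the striatum 9 were lower and none higher, among 63.7%, led by mt-Rnr1 (-2.03 ± 0.34, adjusted p = 3.72e-08), mt-Tp (-2.25 ± 0.54) and mt-Nd4l (-1.11 ± 0.32), of which mt-Tp and mt-Nd4l were positive with the animal as a term (0.20, adjusted p = 0.558, and 1.03, adjusted p = 3.66e-05). In that limma-voom fit mt-Co2 (0.48, adjusted p = 0.201) and mt-Co3 (-0.26, adjusted p = 0.566) were not called, and mt-Nd3 had positive values that passed against the striatum (0.88, adjusted p = 0.000577) and the hippocampus (0.89, adjusted p = 0.000227). In all hypothalamic libraries mt-Nd3 had 6 counts and mt-Nd4l 3 counts. Mean mt-Nd3 was 0.028 CPM in the hypothalamus, 0.066 in the PFC and 0.087 in the striatum, and mean mt-Nd4l 0.010, 0.021 and 0.035, so no direction is read for either gene. The fit with the animal as a term differs from edgeR in the tool as well. In limma-voom without that term 3, 5 and 4 members were called against the hippocampus, PFC and striatum, and with it 5, 9 and 7, so the changes from edgeR cannot be put down to the animal term alone. The lower mt-Rnr1 in the hypothalamus than in the PFC and striatum was called under all 8 alternatives. In animals with both regions, the share of counts on mt- genes was 1.68 times as high in the hypothalamus as in the hippocampus (geometric mean, log2 0.75 ± 0.34 SE), and higher in 21 of 38 animals. The hippocampal share was 0.619 times that of the PFC (log2 -0.69 ± 0.31 SE) and higher in 14 of 36 animals, and 0.530 times that of the striatum (log2 -0.92 ± 0.33 SE) and higher in 14 of 42.

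Among saline-exposed animals, the geometric mean of the share was lower after LPS than without a challenge in every region. In the hypothalamus the SAL-SAL libraries ran from 0.021% over a median of 0.261% to 1.007%, and the SAL-LPS libraries from 0.042% over 0.054% to 0.367%. The SAL-LPS libraries clustered low, with 1 of 12 above the SAL-SAL median, but they lay within the SAL-SAL range. The log2 ratio of geometric means (SAL-LPS to SAL-SAL) was -1.18 ± 0.69 (SE) in the hypothalamus, -0.97 ± 0.49 in the hippocampus, -1.25 ± 0.78 for the PFC and -1.44 ± 0.63 for the striatum. The 95% intervals ran from -2.53 to 0.18, -1.94 to -0.005, -2.77 to 0.27 and -2.67 to -0.21, so 2 of 4 held 0. They are normal intervals that take no account of the small groups or of litter, and the hippocampal one ended only just below 0. Within 1 sex the log2 ratio was as near to 0 as -0.18 in PFC males and -0.44 in hippocampal females, against -1.97 in PFC females and -1.22 in hippocampal males. The medians of those groups went the other way, with 0.232% in SAL-LPS and 0.157% in SAL-SAL among PFC males, and 0.053% and 0.047% among hippocampal females. In the striatum the medians were 0.241% and 0.087%, with 3 of 15 SAL-LPS libraries above the SAL-SAL median, in the PFC 0.206% and 0.074% with 2 of 10, and in the hippocampus 0.076% and 0.068% with 5 of 14. The same SAL-SAL animals gave libraries of several regions, so the regions are not independent of each other.

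Gene by gene, only 1 member passed the test in that comparison. In the hypothalamus, mt-Nd1 was lower in SAL-LPS than in SAL-SAL. Its CPM in SAL-LPS ran from 0, in the shallowest library of 7673 counts, over a median of 25 to 113. In SAL-SAL it ran from 3.46 over 121 to 664. Its log2 fold change was -2.50 ± 0.58 (edgeR adjusted p = 0.0407), and it was called in 6 of 10 alternatives, with adjusted p from 0.00726 to 0.912. It was lost without the libraries against the labelled sex, without the sex term, under the filterByExpr filter and with litters correlated in limma-voom. It was 1 of 13 members tested, beside 0.246% of all genes, and 8 of 13 had an unadjusted p under 0.05. All 13 had negative values, with a median of -2.01 beside 0.07 over all genes. Members are counted in the same libraries and come from shared long transcripts. Here and below, their signs and unadjusted p are therefore not independent of each other. mt-Rnr2 averaged 708 CPM ± 749 (SD, n = 12) in SAL-LPS and 2321 ± 2270 (SD, n = 11) in SAL-SAL, and mt-Co1 59.6 ± 66.1 and 296 ± 335.

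In the striatum 0 of 15 members passed in SAL-LPS vs SAL-SAL, beside 0.0128% of all genes, although all 15 had negative values (median -2.58 beside 0.01 over all genes) and 13 of 15 an unadjusted p under 0.05. DESeq2 called 4 and limma-voom 0. mt-Nd2 had the smallest p (-2.74 ± 0.65, edgeR adjusted p = 0.0813). mt-Rnr2 averaged 1068 CPM ± 1064 (SD, n = 15) in SAL-LPS and 4161 ± 6154 (SD, n = 13) in SAL-SAL. In the PFC 0 of 14 passed, beside 0% of all genes, with 5 at an unadjusted p under 0.05, 1 called in DESeq2 and 0 in limma-voom, and mt-Rnr2 had the smallest p (-2.40 ± 0.63, adjusted p = 0.102). In the hippocampus 0 of 14 passed, beside 2.55% of all genes, with 4 at an unadjusted p under 0.05 and 0 in DESeq2 and limma-voom. There mt-Co1 had the smallest p (-1.26 ± 0.54, adjusted p = 0.181). Whether the regions differed in this response was tested with 3 coefficients in 1 fit over all regions, and 0 of 15 members passed, beside 5.22% of all genes, with 0 at an unadjusted p under 0.05 and 0 in limma-voom.

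**Figure D4:**
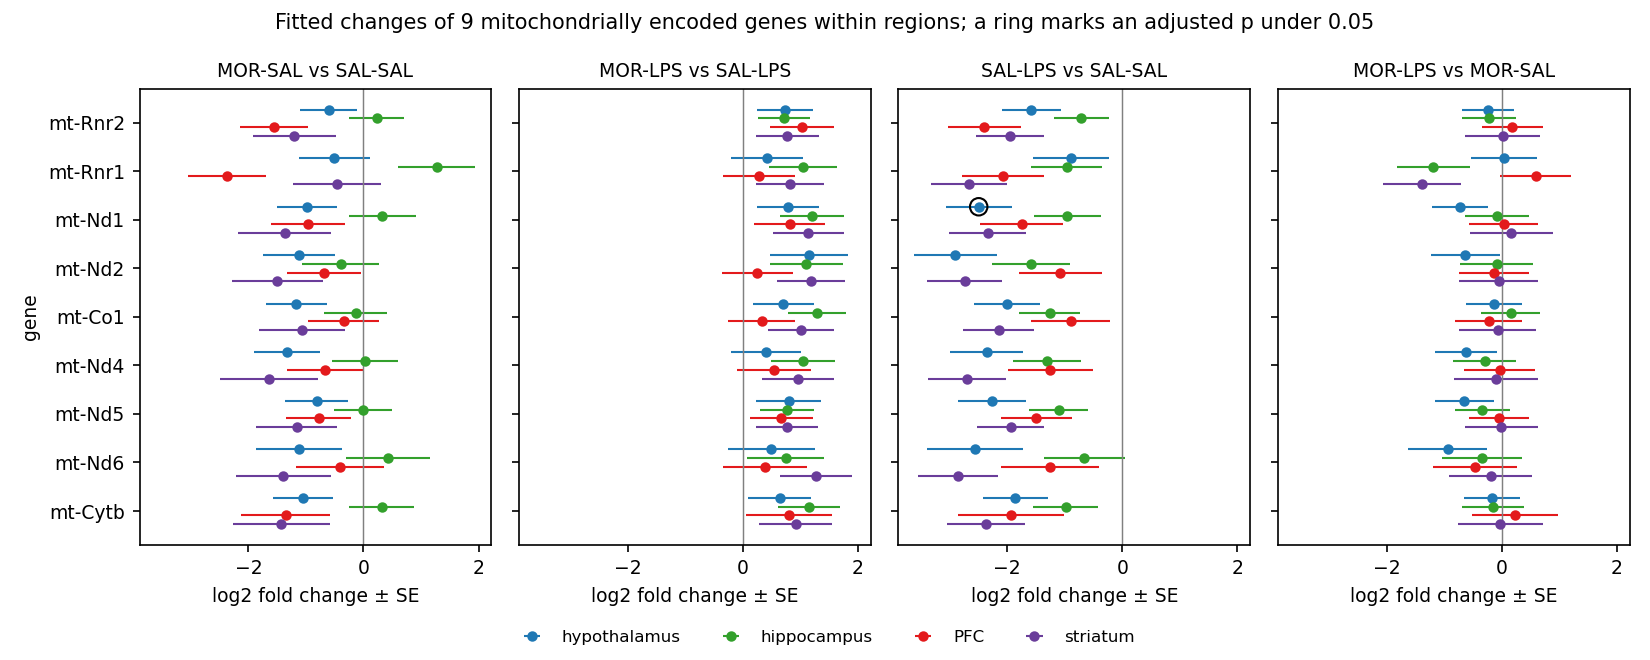
Log2 fold changes with SE (edgeR) of 9 mt- genes in each region, 1 panel per comparison of arms, with a ring for an adjusted p under 0.05. In SAL-LPS vs SAL-SAL all points lie below 0 and only mt-Nd1 of the hypothalamus is ringed, in MOR-LPS vs SAL-LPS all lie above 0, and in MOR-LPS vs MOR-SAL they lie on both sides.

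In morphine-exposed animals the ratios were closer to 0. The log2 ratio of the share, MOR-LPS to MOR-SAL, was -0.28 ± 0.65 (SE) in the hypothalamus, -0.06 ± 0.63 in the hippocampus, 0.04 ± 0.51 for the PFC and -0.36 ± 0.73 for the striatum. The 95% intervals ran from -1.56 to 1.01, -1.29 to 1.18, -0.96 to 1.04 and -1.79 to 1.07, in the same order. None of the members passed in edgeR. In the hypothalamus 0 of 13 were called beside 6.27% of all genes (0 at an unadjusted p under 0.05), and the smallest adjusted p was 0.270 for mt-Tp. In the hippocampus 0 of 14 were called beside 0.467% (1 at an unadjusted p under 0.05, mt-Nd4l, with 19 counts in MOR-SAL and 3 in MOR-LPS), in the PFC 0 of 14 beside 0.0184% (2 at an unadjusted p under 0.05, the lower being mt-Nd3) and in the striatum 0 of 15 beside 1.39% (1, mt-Rnr1, -1.39 ± 0.67, adjusted p = 0.263). DESeq2 and limma-voom also called 0 in each region. The response differed between regions for 1 of 15 members, mt-Nd3, beside 6.23% of all genes (edgeR adjusted p = 0.00148), which rests on 30 PFC counts in MOR-SAL, 28 of them in 1 library, and 0 in MOR-LPS. It was not called with the animal as a term in limma-voom, where 0 members were.

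The interaction, meaning how far the response to LPS differed with exposure, was positive for most members but passed for none. In the hypothalamus 0 of 13 were called beside 3.8% of all genes, with 13 of 13 positive and 6 at an unadjusted p under 0.05, and mt-Co1 had the smallest p (1.87 ± 0.74, adjusted p = 0.158). In the hippocampus 0 of 14 were called beside 2.35% (0 at an unadjusted p under 0.05), and mt-Co1 had 1.42 ± 0.74 (adjusted p = 0.429). In the PFC 0 of 14 were called beside 1.78% (4 at an unadjusted p under 0.05), and mt-Rnr2 had 2.59 ± 0.82 (adjusted p = 0.0831). In the striatum 0 of 15 were called beside 0.00854% (9 at an unadjusted p under 0.05), and mt-Nd2 had 2.69 ± 0.98 (adjusted p = 0.171). DESeq2 and limma-voom called 0 in each region. All 4 arms enter this contrast, so it shares its samples with the comparisons above.

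Among challenged animals, the geometric mean of the share was higher in morphine-exposed ones in every region, although within 1 sex the log2 ratio was -0.06 in hypothalamic females, -0.09 in hippocampal males and -0.16 in PFC males. The medians were not ordered alike (0.082% and 0.054% in the hypothalamus, 0.117% and 0.074% in the PFC, but 0.065% and 0.068% in the hippocampus and 0.076% and 0.087% in the striatum, MOR-LPS first). The log2 ratio of MOR-LPS to SAL-LPS was 0.78 ± 0.51 (SE) in the hypothalamus, 0.62 ± 0.49 in the hippocampus, 0.73 ± 0.60 for the PFC and 0.41 ± 0.58 for the striatum, and the 95% interval held 0 in every region. No member passed in edgeR. In the hypothalamus 0 of 13 were called beside 1.03% of all genes (1 at an unadjusted p under 0.05, mt-Tp, adjusted p = 0.0662), with 12 of 13 positive. In the hippocampus 0 of 14 were called beside 2.73% (4 at an unadjusted p under 0.05), with mt-Co1 first (1.28 ± 0.51, adjusted p = 0.142). In the PFC 0 of 14 were called beside 0.0046% (0 at an unadjusted p under 0.05), with mt-Rnr2 first (1.03 ± 0.56, adjusted p = 0.459). In the striatum 0 of 15 were called beside 0% (3 at an unadjusted p under 0.05), with mt-Nd3 first (22 counts in MOR-LPS and 0 in SAL-LPS, adjusted p = 0.0784) and 15 of 15 positive. DESeq2 and limma-voom called 0 in each region, and 0 of 15 members differed between regions, beside 6.39% of all genes, with 2 at an unadjusted p under 0.05 and 0 in limma-voom.

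Without a challenge, the share of morphine-exposed animals differed from that of saline-exposed ones by less than its SE in each region. The log2 ratio of MOR-SAL to SAL-SAL was -0.12 ± 0.80 (SE) in the hypothalamus, -0.29 ± 0.63 in the hippocampus, -0.57 ± 0.71 for the PFC and -0.67 ± 0.77 for the striatum. The hypothalamic ratio changed sign in 8 of 32 alternatives, running from -0.41 to 0.15 with 1 library left out, and the hippocampal ratio in 1 of 32. Other measures of the hippocampus went the other way, with a median share of 0.096% in MOR-SAL and 0.076% in SAL-SAL, 8 of 12 MOR-SAL libraries above the SAL-SAL median and 10 of 14 members positive, with a median of 0.32 beside -0.01 over all genes. Elsewhere 2 of 13 members were positive in the hypothalamus (median -0.81), 2 of 14 in the PFC (-0.73) and 2 of 15 in the striatum (-1.20). The medians over all genes were 0.07, 0.01 and -0.07 there. In the hypothalamus 0 of 13 members were called in edgeR, beside 1.44% of all genes, with 3 at an unadjusted p under 0.05 and mt-Nd4 first (-1.33 ± 0.58, adjusted p = 0.203). In the hippocampus 0 of 14 were called beside 0% (2 at an unadjusted p under 0.05), with mt-Co2 first (adjusted p = 0.132), in the PFC 0 of 14 beside 0% (3), with mt-Rnr1 first (-2.38 ± 0.68, adjusted p = 0.135), and in the striatum 0 of 15 beside 0% (0), with mt-Nd4 first (-1.64 ± 0.85, adjusted p = 0.457). DESeq2 and limma-voom called 0 in each region. For the difference of this effect between regions 0 of 15 members were called, beside 4.12% of all genes, with 3 at an unadjusted p under 0.05. With the animal as a term in limma-voom 1 was called, mt-Rnr2 (adjusted p = 0.000538), and 0 without that term.

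In the hippocampus 7 members were higher in males than in females, while the ranges of the sexes overlapped. The mean share was 0.195% in males and 0.068% in females of the hippocampus, 0.303% and 0.147% in the hypothalamus, 0.297% and 0.177% in the PFC and 0.346% and 0.241% in the striatum. The hippocampal medians lay closer, at 0.092% in males and 0.066% in females, and 3 male libraries had 1.060%, 0.997% and 0.853%. Within MOR-LPS the male median of 0.046% lay below the female median of 0.068%, although the male mean was 0.190% and the female mean 0.095%. Of 14 hippocampal members tested, 7 were higher in males (edgeR, adjusted p from 0.0134 to 0.0332), beside 2.51% of all genes, and all 14 had positive values. mt-Nd1 ran from 0 over a median of 52.3 to 912 CPM in males and from 2.62 over 25 to 102 in females, so the sexes overlapped at the low end and only males were high. Its log2 fold change was 1.86 ± 0.42 (adjusted p = 0.0134), that of mt-Nd4 1.83 ± 0.42 (adjusted p = 0.0134) and that of mt-Cytb 1.69 ± 0.40 (adjusted p = 0.0177). mt-Rnr2 had 1.391 ± 0.346 and mt-Co1 1.498 ± 0.378, both called. The 7 calls fell to 0 with litters correlated in limma-voom and to 2 under the filterByExpr filter. In every litter but litter 3 the animals sequenced were of 1 sex, and the edgeR p of this contrast take no account of litter, so differences between sexes and between single-sex litters cannot be told apart there. The males with 1.060% and 0.997% were 13-3 and 13-2 of 1 litter.

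In the hypothalamus 1 of 13 members was higher in males, mt-Rnr2 (1.33 ± 0.36, edgeR adjusted p = 0.0242), beside 3.45% of all genes. It was called in 7 of 9 alternatives, with 0 members called under the filterByExpr filter and with litters correlated in limma-voom, and its adjusted p ran from 0.00903 to 0.182. It ran from 121 over a median of 2413 to 6328 CPM in males and from 133 over 529 to 6492 in females. All 13 members had positive values and 8 an unadjusted p under 0.05. In the same libraries all 5 oligodendrocyte markers and 3 of 5 astrocyte and 2 of 5 microglia markers were lower in males, and their part in the result was not tested. In the PFC 0 of 14 members passed beside 0.709% (4 at an unadjusted p under 0.05, 0 in DESeq2 and limma-voom), with mt-Rnr2 first (1.17 ± 0.41, adjusted p = 0.138). In the striatum 1 of 15 passed beside 0.841%, mt-Nd4l, with 18 counts in 9 of 27 males and 0 in 27 females (adjusted p = 0.0292), and DESeq2 and limma-voom called 0. The order of the sexes was not the same in every arm. Mean shares were higher in females among the SAL-SAL libraries of the hypothalamus (0.404% and 0.272%) and striatum (0.583% and 0.502%) and the MOR-SAL libraries of the PFC (0.179% and 0.146%). Without the libraries against the labelled sex the hippocampal means were 0.207% in males and 0.069% in females.

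An animal's level in the hypothalamus went with its level in the PFC and striatum, while its relations with the hippocampus did not pass the test. For mt-Rnr2, as log2(CPM + 1) less the mean of the region and arm, Pearson's r was 0.483 between hypothalamus and PFC (35 animals, permutation test, adjusted p = 0.00984), 0.530 between hypothalamus and striatum (37 animals, adjusted p = 0.00378) and 0.431 between PFC and striatum (35 animals, adjusted p = 0.0210). These permutation p are two-sided, from 100000 permutations and adjusted over 18 relations. Spearman's rho was 0.4997, 0.507 and 0.385, with adjusted permutation p of 0.00819, 0.00702 and 0.0512. Without the 2 animals farthest from the median of the first region r was 0.441, 0.445 and 0.419, with the sexes also centred 0.441, 0.527 and 0.381, and within litters 0.406, 0.307 and 0.160. Between the hippocampus and the hypothalamus, PFC and striatum r was 0.107 (38 animals), 0.047 (36 animals) and 0.107 (42 animals), with adjusted permutation p of 0.589 or more and rho of 0.107, -0.008 and 0.052.

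For mt-Co1 and mt-Nd1 the relations that passed the test by Pearson's r were between the same pairs of regions. For mt-Co1 r was 0.512, 0.576 and 0.407 among hypothalamus, PFC and striatum (adjusted permutation p of 0.00787, 0.00198 and 0.0327), and for mt-Nd1 0.622, 0.459 and 0.505 (0.00144, 0.0113 and 0.00788). By Spearman's rho the mt-Co1 relation between PFC and striatum missed the threshold (0.366, adjusted permutation p = 0.0609), and the other 5 passed. With the hippocampus r ran from 0.047 to 0.239 for both genes, with adjusted permutation p of 0.266 or more. Within litters the mt-Nd1 relation between hypothalamus and striatum was 0.12, so that part of the relation lay between litters. Animals of a litter are not independent, which these p do not account for.

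**Figure D5:**
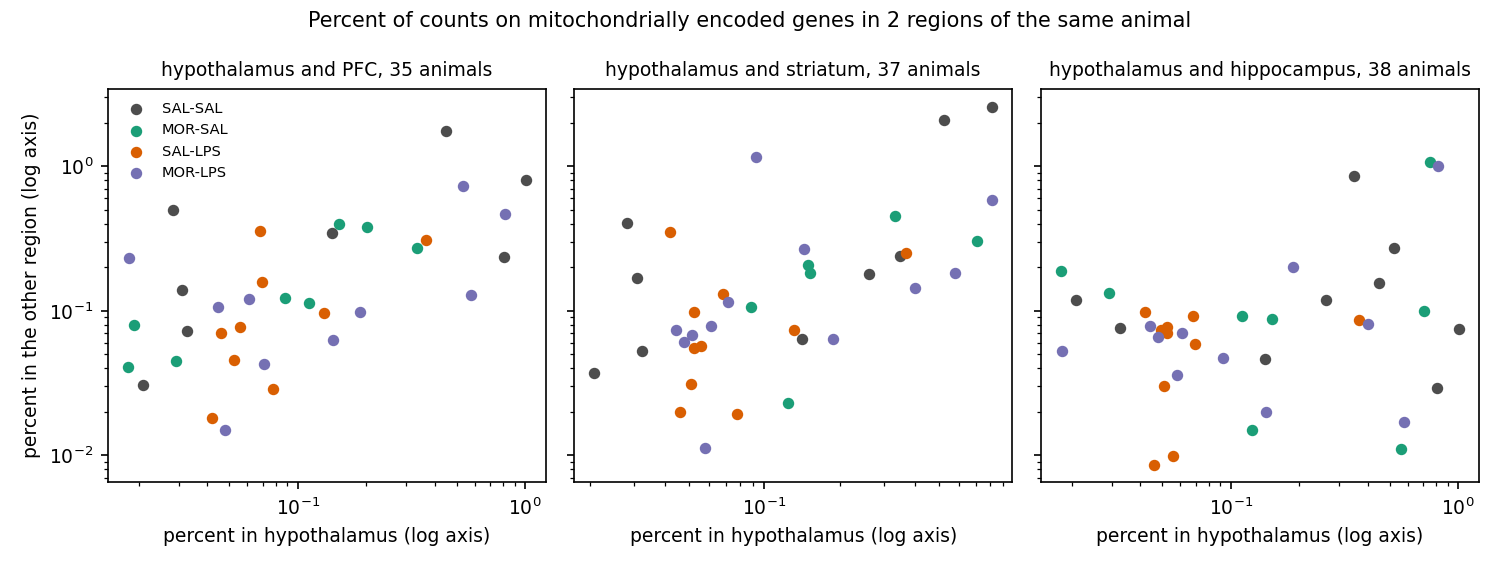
Percent of counts on mt- genes in the hypothalamus against that in the PFC (35 animals), striatum (37 animals) and hippocampus (38 animals) of the same animal, 1 point per animal coloured by arm, both axes log. The points rise together in the first panels and scatter in the panel of the hippocampus.

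Of the 18 animals with libraries of all 4 regions, the male labelled 13-2 (MOR-LPS) was the one above 2 times the region median in each, its hippocampus included, with shares of 0.814% in the hypothalamus, 0.997% in the hippocampus, 0.463% for the PFC and 0.580% for the striatum. The SAL-SAL male 5-3 had 0.523%, 0.270% and 2.090% in the hypothalamus, hippocampus and striatum, and its litter mate 5-1 had 0.450%, 0.156% and 1.762% in the hypothalamus, hippocampus and PFC. The SAL-SAL female 4-3 had 0.809% in the hypothalamus, 0.029% in the hippocampus, 0.236% for the PFC and 2.569% for the striatum, an 87.6-fold range within 1 animal.

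Several other measures moved with the share across libraries of a region. As a description over 48 to 55 libraries, which share their scaling by total counts, Spearman's rho with the share was 0.824 to 0.864 for the summed level of the nuclear copies of mitochondrial genes. Reads of near-identical copies cannot be assigned to them alone, so this is not a measure separate from the share. The rho was 0.162 to 0.637 for the summed nuclear-encoded subunits of each respiratory complex, with the lowest values in the PFC. For the summed factors of mitochondrial DNA and RNA metabolism it was 0.013 to 0.247. For RNAs retained in the nucleus, such as Malat1 and Meg3, it was -0.342 in the hypothalamus and -0.403 in the striatum and -0.108 and -0.112 in the hippocampus and PFC. For oligodendrocyte markers it was 0.320, 0.512, 0.030 and 0.394 in the hypothalamus, hippocampus, PFC and striatum, and for total counts 0.037, 0.094, -0.256 and -0.493. For neuron markers it was 0.502, -0.163, -0.140 and 0.155 in that order, and for genes detected 0.163, -0.279, -0.219 and -0.446. For astrocyte markers it was 0.184, 0.374, 0.188 and 0.341, for microglia markers 0.010, 0.195, -0.031 and 0.424 and for endothelium markers -0.026, -0.229, -0.198 and -0.002. Their part in the differences between arms, sexes and regions was not tested.

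The nuclear-encoded partners of the members showed few calls between arms. Of 89 listed subunits of the respiratory complexes, 72 to 74 were tested per region. In the comparisons between arms 1 was called, lower in MOR-LPS than in MOR-SAL in the hippocampus, beside 0.467% of all genes. Over these comparisons 0% to 6.27% of all genes were called, so the small count is not read as a trait of the subunits. In SAL-LPS vs SAL-SAL their median log2 fold change was 0.21 in the hypothalamus (61 of 74 positive), -0.27 in the hippocampus (12 of 72), 0.02 in the PFC and -0.44 in the striatum (4 of 72), so the hypothalamic subunits lay on the other side of 0 from the mitochondrial ones. Of 31 factors of mitochondrial DNA and RNA metabolism 27 or 28 were tested. None of these factors was called between arms, beside the same 0% to 6.27% of all genes. Among those with the smallest p in the hypothalamic SAL-LPS vs SAL-SAL comparison were Gabpa, a subunit of a transcription factor of respiratory genes (-0.78 ± 0.29, adjusted p = 0.156), and Polrmt, the mitochondrial RNA polymerase (-0.48 ± 0.22, adjusted p = 0.288). Between the PFC and the striatum 51 of 74 subunits were called beside 31.2% of all genes, 43 of them higher in the PFC and 8 lower. Between the hippocampus and the striatum 21 of 74 were called, a share equal to the 28.4% of all genes, 18 higher in the hippocampus and 3 lower. Whether the subunits differed from the members was not tested.

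Markers of other cells moved with some comparisons of arms in the hypothalamus. All 5 oligodendrocyte markers and 4 of 5 astrocyte, 2 of 5 microglia and 1 of 4 endothelium markers were higher in MOR-LPS than MOR-SAL. No member was called there, beside 6.27% of all genes. In SAL-LPS vs SAL-SAL none of the oligodendrocyte, astrocyte, microglia or endothelium markers was called in any region. Of all genes, 0.246%, 2.55%, 0% and 0.0128% were called there in the hypothalamus, hippocampus, PFC and striatum. The summed oligodendrocyte markers of the hypothalamus ran from 74.2 over a median of 316 to 6807 CPM in SAL-SAL and from 117 over 317 to 2476 in SAL-LPS. None of the nuclear copies was called in SAL-LPS vs SAL-SAL either, beside the same shares of all genes. Their median log2 fold change was -1.92, -0.68, -1.71 and -2.61 for the hypothalamus, hippocampus, PFC and striatum. Reads of near-identical copies cannot be assigned to them alone, so these values are not separate from those of the members.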

How the data were processed

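Neuronal (NeuN+) nuclei were sorted from tissue punches after a Dounce and iodixanol gradient preparation, and libraries were made by a modified Smart-seq3 protocol with Tn5 tagmentation. The authors deposited raw counts per gene for each region, made with Trim Galore 0.6.7 and STAR 2.7.10a (checked with HTSeq 0.12.4) on mm10 and GENCODE vM25, and used DESeq2 1.40.2 with sex and condition. The use of strand in counting is not given in the sources used here. The deposited CPM tables leave out the mt- genes and hold CPM over the remaining total, so CPM was recomputed here from the counts with all genes in the total.

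The share was the sum of mt- counts over the total, described by mean, SD and ratios of geometric means, with no test. The 95% intervals of these ratios are normal intervals that treat libraries as independent. Genes with a total count above 10 were tested with edgeR 4.0.16 (TMM scaling, quasi-likelihood, R 4.3.3) with arm and sex in each region, and over all regions for region pairs and for differences between regions, at a Benjamini-Hochberg threshold of 0.05. DESeq2 1.42.0 and limma 3.58.1 were alternatives, with other filters, scalings and left-out libraries. The contrast of males and females, the settings leaving out libraries against the labelled sex, the limma-voom fits with and without the animal term, and the levels by sex were added after the data were seen, and members and lists were chosen with earlier results of these data known. The replicate labels are a litter number and an individual number, as the study's sample table gives the format, so libraries with the same label were taken as 1 animal and 18 litter numbers as 18 litters, although the methods text counts more litters. Deviations from group means correlated weakly, at a mean r of 0.027 to 0.105 within animals and -0.005 to 0.000 between animals, over 16576 genes, with 8 to 16 of the 35 to 42 same-animal pairs over 0.1. The animal term was fitted in limma-voom since edgeR was too slow. The p-values treat animals of a litter as independent. On simulated data (hippocampus MOR-SAL vs SAL-SAL, 21849 genes) edgeR recovered 24% of genes changed 1.5-fold, 90% at 2-fold and 100% at 4-fold. The simulated spread between libraries was well below that of the members, such as hippocampal mt-Rnr2 with 853 CPM ± 1312 (SD, n = 55). These rates therefore do not hold for the members, and an absent call does not bound their change. Named were mt-Co1, mt-Nd1 and mt-Rnr2 in every region, all called members where at most 6 were called and otherwise the 3 with the smallest p per direction, the member with the smallest p where none was called, and up to 2 genes per direction of the other lists. Depth was 7673 to 92945090 counts per library. Nuclear copies were sought with BLAST+ 2.17.0 among annotated transcripts.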

Additional observations from a re-analysis of the deposited data

Results flagged for a closer look

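In the PFC, single libraries lay apart from their arm by Dixon's test, in 6 of 18 checks. Its rate of about 1 in 20 by chance assumes normal values. The percents and CPM checked were skewed, as in PFC SAL-SAL, with shares from 0.020% over a median of 0.206% to 1.76%. The 6 of 18 is therefore not read as an excess. Among the 10 SAL-SAL libraries, that of the male labelled 5-1 had 1.76% of its counts on mt- genes, with the next at 0.796%, and 16523 CPM of mt-Rnr2, with the next at 4436. The SAL-SAL library of the female labelled 4-1 had 612 CPM of mt-Co1 (next 207), 703 CPM of mt-Nd1 (next 174) and 2443 CPM of mt-Cytb (next 271). Among the 10 SAL-LPS libraries, that of the male labelled 11-0 had 302 CPM of mt-Co1 (next 158). The checks share libraries and are not independent.

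The response of mt-Nd3 to LPS in morphine-exposed animals differed between regions in edgeR (adjusted p = 0.0015), but not with the animal as a term in limma-voom (adjusted p = 0.992). Its counts were few, with 30 in the PFC MOR-SAL libraries, 28 of them in 1 library, and 0 in those of PFC MOR-LPS. The MOR-SAL and MOR-LPS libraries held 1 and 5 counts in the hypothalamus, 0 and 6 in the hippocampus, and 7 and 22 in the striatum.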

How the results depend on the processing

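Of the counts of called members, 250 stayed within 1.5 times the reported count and 38 did not. For the log2 ratios, means and makeup of the share the bar was 1 SD between libraries, and no value moved by more. That bar was wide. The SD exceeded the mean share in every region, so no lower mean could have crossed it. For the log2 ratios the bar was a pooled SD of 1.27 to 1.94, so staying within it does not show that the values are stable. In the hypothalamus, SAL-LPS vs SAL-SAL gave 1 call, but 0 under filterByExpr, without libraries against the labelled sex, without a sex term and in limma-voom with litters, 2 with DESeq2 size factors, 3 with library totals and 4 without a filter and in DESeq2. Its MOR-LPS vs SAL-LPS gave 1 without a sex term, and males vs females 0 under filterByExpr and limma-voom and 5 without a filter and without low-depth libraries. In the hippocampus SAL-LPS vs SAL-SAL gave 2 without a sex term, and males vs females 2 under filterByExpr and 0 in limma-voom. In the PFC DESeq2 called 1 in SAL-LPS vs SAL-SAL, and the interaction gave 1 without libraries against the labelled sex and 1 without a sex term. In the striatum DESeq2 called 4 in SAL-LPS vs SAL-SAL, and males vs females gave 0 under filterByExpr, limma-voom and DESeq2. Between regions, SAL-SAL libraries alone gave 2 (hypothalamus vs hippocampus and vs PFC) and 3 (hypothalamus vs striatum, hippocampus vs PFC and vs striatum). limma-voom without the animal term gave 3, 5, 4, 3 and 2 in the order hypothalamus vs hippocampus, PFC and striatum, then hippocampus vs PFC and striatum, DESeq2 2 for hypothalamus vs hippocampus, and library totals 3 for hypothalamus vs striatum. The cause was not tested. With the animal as replicate block the region pairs gave 5, 9, 7, 8, 6 and 0 calls, the difference between regions 1 for MOR-SAL vs SAL-SAL and 0 for MOR-LPS vs MOR-SAL (also 0 in limma-voom without the animal term), and beside edgeR the block changed no other count by over 1.5 times. Beside limma-voom without the animal term, the block raised the counts of all region pairs but PFC vs striatum by over 1.5 times. The SAL-LPS to SAL-SAL ratio of the share kept its sign in every alternative run (log2 -1.97 to -0.18). MOR-LPS vs MOR-SAL changed sign in 12 of 35 in the PFC, 9 of 35 in the hippocampus and 1 of 34 in the hypothalamus. MOR-SAL vs SAL-SAL did so in 8 of 32 in the hypothalamus and 1 of 32 in the hippocampus. MOR-LPS vs SAL-LPS did so in 1 of 32 in the hypothalamus, 1 of 37 in the hippocampus and 1 of 32 in the PFC. Ratios without rRNA could not be computed for hypothalamic SAL-LPS, where 1 library had no other mt- count. The striatum had no low-depth library, and edgeR with the animal term was not run.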
